A study of Saccharomyces cerevisiae with 12 samples.

Results

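The hexose transporter genes and glucose sensor genes of budding yeast (Saccharomyces cerevisiae) were described on microarrays of strains in which a regulator of the TATA-binding protein (TBP) could be removed from the nucleus. The set was defined by gene symbol as HXT1, HXT2, HXT3, HXT4, HXT5, HXT6, HXT7, HXT10, SNF3 and RGT2, 10 genes in all. The array annotation gave a named probe to 8 of them, among 6388 gene probes of which 5326 carried a symbol. HXT3 and HXT7 had no probe under their symbols and were not analysed here. The measured genes were HXT1 (YHR094C), HXT2 (YMR011W), HXT4 (YHR092C), HXT5 (YHR096C), HXT6 (YDR343C), HXT10 (YFL011W), SNF3 (YDL194W) and RGT2 (YDL138W). HXT6 and HXT7 are near-identical neighbours, so the HXT6 probe may carry the signal of both. In the RefSeq gene order (assembly R64), HXT4, HXT1 and HXT5 also lie side by side, with only AHT1 between HXT4 and HXT1.

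Yeast takes up glucose by facilitated diffusion through the Hxt carriers, which differ in affinity and capacity. Hxt1 and Hxt3 are low-affinity carriers made when glucose is abundant, Hxt2, Hxt4, Hxt6 and Hxt7 have moderate to high affinity and are made when glucose is scarce, and Hxt5 is linked to slow growth. Hxt10 is a carrier of little-understood use. Snf3 and Rgt2 resemble carriers but act as sensors: Snf3 reads low glucose and Rgt2 high glucose, and both lead to the breakdown of Mth1 and Std1, which the repressor Rgt1 needs to silence HXT genes. A separate branch, through the kinase Snf1 and the repressor Mig1, turns down HXT2, HXT4 and SNF3 when glucose is plentiful.

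The cultures came from 3 strains, and each of the 6 groups held 2 cultures from independent colonies, grown in complete synthetic medium with 2% glucose. The tagged groups were Mot1-FRB (YGP200) with rapamycin, Mot1-FRB untreated, NCB2-FRB (YGP201) with rapamycin and NCB2-FRB untreated, and the wild-type groups (HHY168) were WT with rapamycin and WT untreated. Rapamycin was given at 1 ug/ml for 60 min, and untreated cultures grew for the same time without it. Mot1 is an ATPase that strips TBP from DNA, and NCB2 encodes the beta subunit of NC2, which binds TBP on DNA. FRB is the domain that rapamycin joins to FKBP12, and in anchor-away strains FKBP12 sits on a ribosomal protein, so the drug carries the tagged protein out of the nucleus. HHY168 is known as an anchor-away parent whose TOR1 allele and lack of FPR1 make growth resistant to rapamycin; the labels give only the strain name. Each tag was studied in 1 strain.

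Each level below is the log2 ratio of a culture to a common reference, RNA of untreated wild type, on the same array, so a level compares a gene with itself between groups and never with another gene. Each array was centred on the bulk of its genes, and changes are relative to these. Cultures lettered a carried Cy3 and those lettered b carried Cy5 in every group, so culture letter and dye cannot be told apart. The letters differed across the array, with a median absolute mean difference of 0.098 over all probes. Among the members, HXT4 and RGT2 were lower in culture a than in culture b in 6 of 6 groups, by 0.25 and 0.17 on average. HXT6 was lower in culture a in 5 of 6 groups, by 0.27 on average. HXT2 went the other way, by 0.20 on average, and was lower in culture a in 1 of 6 groups. The arrays measured RNA, and the removal of the tagged proteins from the nucleus was not measured. The MOT1 transcript averaged 1.83 ± 0.07 in treated and 0.74 ± 0.06 in untreated Mot1-FRB cultures, and the NCB2 transcript averaged -0.03 ± 0.24 in treated and -0.67 ± 0.19 in untreated NCB2-FRB cultures (SD, n = 2 each). Each was also higher with rapamycin in the other tagged strain. MOT1 averaged 1.22 ± 0.15 in treated and 0.15 ± 0.11 in untreated NCB2-FRB cultures. NCB2 averaged 1.19 ± 0.24 in treated and 0.41 ± 0.19 in untreated Mot1-FRB cultures. In treated and untreated WT, MOT1 averaged 0.066 and 0.065, and NCB2 -0.037 and -0.022.

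The array of treated WT culture a was dim. Its culture signal was 1.71 times its local background, against 8.25 to 21.6 times on the other 11 arrays, and 63.6% of its probes exceeded the blank spots in both channels, against 95.4% to 99.1%. The blank level is percentile 95 of the blank spots of an array and channel. On the dim array SNF3 stood at 1.08 times, RGT2 at 1.53 times and HXT4 at 1.87 times the blank level. Their medians over the 12 arrays were 7.25, 5.81 and 144 times. HXT10 was weak throughout, with a median of 1.34 times the blank level and a signal above it on 11 of 12 arrays. HXT5 was also weak, at a median of 1.93 times. On the dim array the reference signals of HXT5 and HXT10 were below the blank level, at 0.86 and 0.95 times. Their ratios on that array rest on a reference not told apart from blank spots. The other members reached medians of 5.81 times (RGT2) to 232 times (HXT6), and 0 member spots were saturated.

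**Figure D1:**
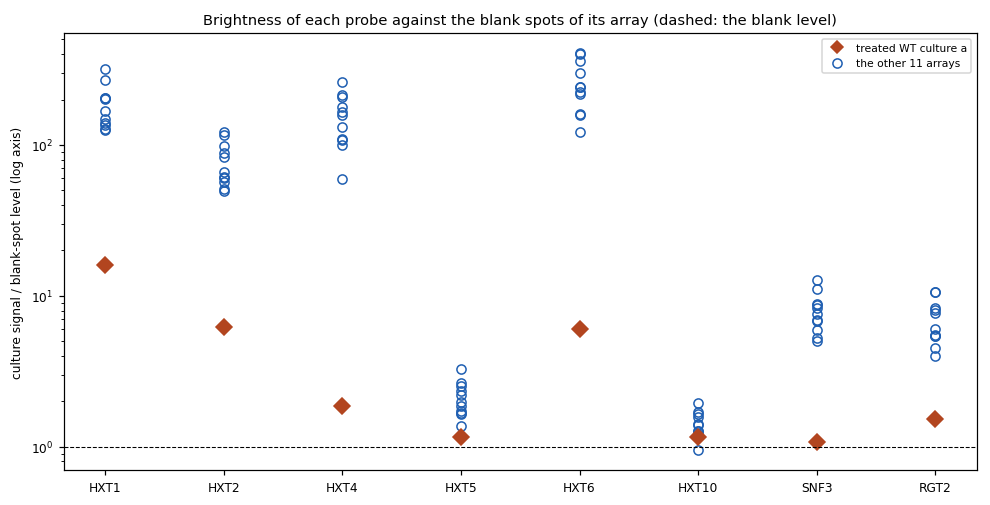
Culture signal of each probe divided by the blank-spot level of the same array, on a log axis, with 1 point per array; diamonds mark treated WT culture a and circles the other 11 arrays. HXT5 and HXT10 reach at most 3.30 and 1.94 times the dashed blank level. HXT4, RGT2 and SNF3 drop towards it on the dim array (1.87, 1.53 and 1.08 times).

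The first comparison asked what rapamycin did in the Mot1-FRB strain. The transcripts of both sensors fell: RGT2 fell by 28.0% and SNF3 by 17.5%. HXT1, the main low-affinity carrier, fell by 18.4%, and HXT10 rose by 17.5%. HXT2, HXT4, HXT5 and HXT6 did not pass the test. RNA came from whole cultures, so fewer cells with a transcript and less of it per cell cannot be told apart. In all, 1 of the 8 members was called higher and 3 lower at an adjusted p under 0.05 (limma, Benjamini-Hochberg over 6388 probes), while of all probes 22.0% were called higher and 15.3% lower, 37.3% together. The median log2 change of the members was -0.16, beside 0.0097 for all probes.

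RGT2, the sensor of high glucose, had levels of -0.71 and -0.50 in the treated Mot1-FRB cultures a and b, against -0.19 and -0.067 in the untreated ones. The treated cultures were both below the untreated ones, within each letter too, by 0.52 (a) and 0.43 (b). The log2 change was -0.47 ± 0.11 (SE, adjusted p = 0.0100). This was the largest fall among the members in Mot1-FRB, and 296 of the 6388 probes had a lower log2 change.

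SNF3, the sensor of low glucose, had levels of -0.22 and -0.25 in the treated cultures, against 0.097 and -0.0071 in the untreated ones. The treated cultures lay close together and below both untreated ones. The log2 change was -0.28 ± 0.055 (SE, adjusted p = 0.00389).

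HXT1 had levels of 0.12 and 0.058 in the treated cultures, against 0.33 and 0.44 in the untreated ones. The groups did not overlap, and the log2 change was -0.29 ± 0.070 (SE, adjusted p = 0.00994). From the authors' deposited log2 ratios the same comparison gave a larger fall, -0.58 (adjusted p = 8.83e-05, where 56.7% of all probes were called), and the cause of the difference was not tested.

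Among the carriers made when glucose is scarce, HXT2 had levels of -0.59 and -0.85 with rapamycin, against -0.34 and -0.26 without. The treated cultures were below the untreated ones in both letters, but the SE of HXT2, pooled over all groups, was larger than that of HXT1, and the log2 change of -0.42 ± 0.16 (SE) did not pass the test (adjusted p = 0.0675). With the letter as a replicate block the same change passed (adjusted p = 0.00755). HXT6, a high-affinity carrier, had 0.37 and 0.84 with rapamycin, against 0.16 and 0.50 without. These groups overlapped, because culture b exceeded culture a in both; the change of 0.28 ± 0.19 had an adjusted p of 0.287, and of 0.0344 with the block. HXT4 had 0.21 and 0.51 with rapamycin, against 0.26 and 0.56 without. Its groups overlapped almost fully, with a change of -0.052 ± 0.16 (95% interval -0.42 to 0.32).

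Of the weakly measured carriers, HXT10 rose and HXT5 did not pass the test. HXT10 had levels of 0.34 and 0.26 in treated Mot1-FRB cultures, against 0.081 and 0.051 in untreated ones. The groups did not overlap, the log2 change was 0.23 ± 0.064 (SE, adjusted p = 0.0191), and the probe stood at 1.70 and 1.94 times the blank level with rapamycin, against 1.18 and 1.59 times without. HXT5, the carrier linked to slow growth, had 0.097 and 0.32 with rapamycin, against -0.10 and -0.040 without. Its groups did not overlap either, but the change of 0.28 ± 0.11 had an adjusted p of 0.0704, and of 0.0262 with the block. With the block 3 members were called higher and 4 lower in Mot1-FRB, beside 33.9% and 28.5% of all probes, 62.4% together.

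The calls in Mot1-FRB rested on few arrays. Without untreated Mot1-FRB culture b, SNF3 alone was called (adjusted p = 0.0375 at most when any 1 array was left out), and HXT10, RGT2 and HXT1 lost their calls when 3, 2 and 2 of the 12 arrays were left out in turn.

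**Figure D2:**
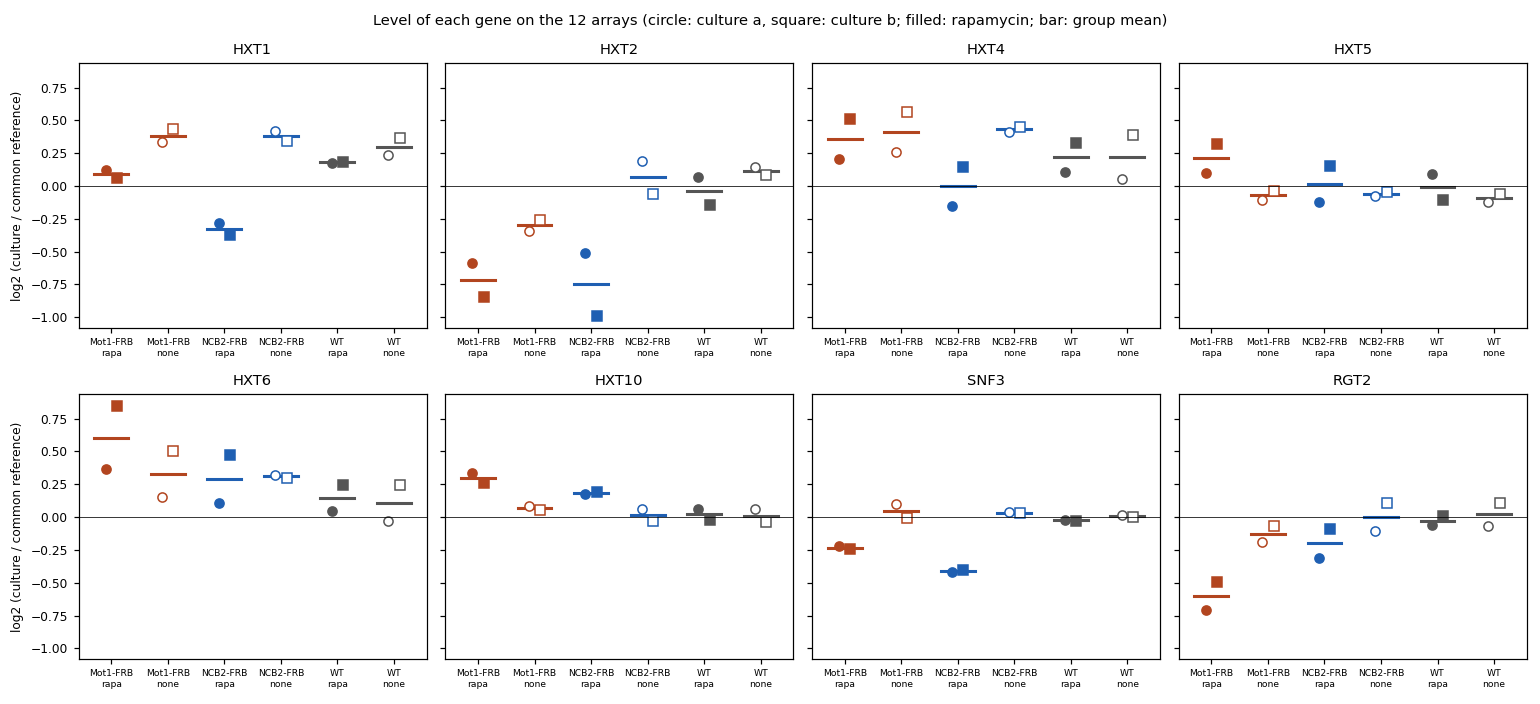
Log2 ratio of culture to common reference for the 8 measured genes on all 12 arrays; each point is 1 culture (circle a, square b), filled with rapamycin and open without, and the bar is the group mean. SNF3 and HXT1 lie below their untreated cultures in both treated tagged strains, while RGT2 reaches its lowest level, -0.71 and -0.50, in treated Mot1-FRB.

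In the NCB2-FRB strain rapamycin gave the largest changes of the set. HXT2 fell by 43.1% and HXT1 by 38.9%, and the sensor SNF3 fell by 26.4%. No carrier rose by the test, and the sensor RGT2 did not pass it. In all, 0 members were called higher and 3 lower, while of all probes 22.8% were called higher and 18.2% lower, 41.0% together. The median log2 change of the members was -0.32, beside -0.0061 for all probes.

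HXT2 had levels of -0.51 and -0.99 in the treated NCB2-FRB cultures, against 0.19 and -0.061 in the untreated ones. The treated cultures differed by more than the untreated ones did, yet both were below both untreated cultures. The log2 change was -0.81 ± 0.16 (SE, adjusted p = 0.00322), and 31 of the 6388 probes had a lower one.

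HXT1 had levels of -0.28 and -0.38 in the treated cultures, against 0.42 and 0.34 in the untreated ones. The groups were far apart relative to their spread, and the fall was nearly the same in both letters, -0.70 (a) and -0.72 (b). The log2 change was -0.71 ± 0.070 (SE, adjusted p = 7.67e-05), and 68 probes had a lower one.

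SNF3 had levels of -0.42 and -0.41 in the treated cultures, against 0.036 and 0.028 in the untreated ones. Cultures of a group nearly coincided in either state, closer than for any other member in this strain. The log2 change was -0.44 ± 0.055 (SE, adjusted p = 0.000269). The calls of HXT1, HXT2 and SNF3 in NCB2-FRB held when each of the 12 arrays was left out in turn.

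RGT2, by contrast, had -0.31 and -0.092 in the treated NCB2-FRB cultures, against -0.10 and 0.11 in the untreated ones. Within each letter the treated culture was lower by 0.20, but the groups overlapped, and the change of -0.20 ± 0.11 (SE) did not pass the test (adjusted p = 0.188, and 0.00476 with the block). HXT4 had -0.15 and 0.14 with rapamycin, against 0.41 and 0.45 without. Its treated cultures were both below the untreated ones, and the change of -0.44 ± 0.16 narrowly missed the test (adjusted p = 0.0595, and 0.000437 with the block).

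HXT6 had 0.10 and 0.47 in treated NCB2-FRB cultures, against 0.32 and 0.30 in untreated ones. The treated cultures lay on either side of the untreated ones, with a change of -0.021 ± 0.19 (95% interval -0.45 to 0.41). HXT5 had -0.12 and 0.15 with rapamycin, against -0.079 and -0.045 without, again on either side, with a change of 0.076 ± 0.11 (95% interval -0.17 to 0.32). HXT10 had 0.17 and 0.19 with rapamycin, against 0.060 and -0.032 without. The groups of HXT10 did not overlap, and the change of 0.17 ± 0.064 had an adjusted p of 0.0645, and of 0.00723 with the block. With the block 1 member was called higher and 5 lower in NCB2-FRB, beside 31.8% and 30.8% of all probes, 62.6% together.

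**Figure D3:**
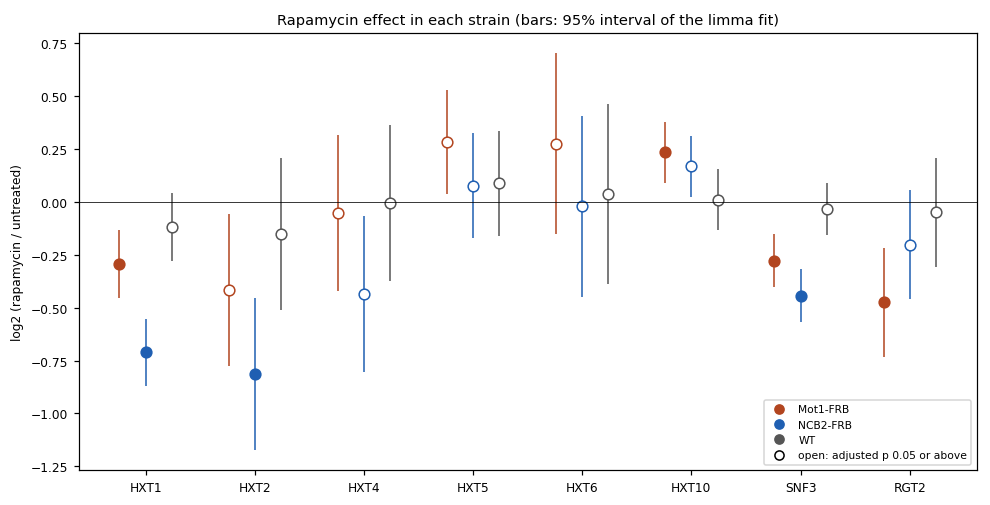
Log2 change of rapamycin over untreated for the 8 genes in Mot1-FRB, NCB2-FRB and WT, with the 95% interval of the limma fit; filled points had an adjusted p under 0.05. HXT1 and SNF3 are filled in both tagged strains, HXT2 in NCB2-FRB, RGT2 and HXT10 in Mot1-FRB, and every WT point is open.

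Rapamycin in the untagged wild type gave changes of -0.15 (HXT2) to 0.087 (HXT5). By limma 0 of the 8 members were called, and 0% of all probes; 0 members and 120 of the 6388 probes had an unadjusted p under 0.05, and the fit with the replicate block and the authors' deposited values gave 0 members too. HXT1 had 0.18 and 0.18 in treated WT cultures, against 0.23 and 0.37 in untreated ones, a change of -0.12 ± 0.070 (95% interval -0.28 to 0.040). SNF3 had -0.025 and -0.026 in treated WT cultures, against 0.017 and -0.0028 in untreated ones. Both genes were slightly lower with the drug in both letters, with intervals that include 0. RGT2 had -0.062 and 0.0067 with rapamycin, against -0.067 and 0.11 without, and its treated values lay within the untreated range. HXT2 had 0.071 and -0.15 with rapamycin, against 0.14 and 0.084 without, so that its groups did not overlap, with a 95% interval of -0.51 to 0.21 for the change.

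The remaining carriers differed by less than their SE in WT. HXT4 had 0.11 and 0.33 in treated cultures, against 0.055 and 0.39 in untreated ones. HXT6 had 0.045 and 0.24 with rapamycin, against -0.027 and 0.24 without, and HXT10 had 0.061 and -0.020 with rapamycin, against 0.060 and -0.039 without. HXT5 had 0.094 and -0.10 with rapamycin, against -0.12 and -0.063 without. For each of these the cultures of the groups overlapped. Treated WT culture a is the dim array; without it the WT changes of the members ranged from -0.26 (HXT2) to 0.13 (HXT6), and 0 were called.

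The tagged strains were then set against WT by the difference of the rapamycin effects, with the same 4 WT cultures in both comparisons. In NCB2-FRB the effect was lower than in WT for HXT1, with a difference of -0.59 ± 0.099 (SE, adjusted p = 0.00325), and for SNF3, with a difference of -0.41 ± 0.078 (SE, adjusted p = 0.00567). These were the calls among the 8 members, 0 higher and 2 lower, where 23.5% of all probes were called, and 8.95% of all probes were called lower. Without the dim array the differences were -0.59 (adjusted p = 0.0142) and -0.41 (adjusted p = 0.0217). HXT2 differed by -0.66 ± 0.23 (adjusted p = 0.0634, and 0.00586 with the block), and HXT4 by -0.43 ± 0.23 (adjusted p = 0.225, and 0.00567 with the block). With the block, 48.4% of all probes were called in this comparison. The 95% intervals of HXT5 (-0.36 to 0.34) and HXT6 (-0.66 to 0.55) leave room for changes in either direction.

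In Mot1-FRB the difference from the WT effect was called for 0 of the 8 members by limma, where 19.4% of all probes were called, although 3 members had an unadjusted p under 0.05. These were RGT2 at -0.42 ± 0.16 (adjusted p = 0.100), SNF3 at -0.24 ± 0.078 (adjusted p = 0.0571) and HXT10 at 0.22 ± 0.091 (adjusted p = 0.125). With the block all 3 passed, with adjusted p of 0.00107, 0.00877 and 0.0152, where 44.7% of all probes were called. From the authors' deposited values HXT1, RGT2 and SNF3 were called lower and HXT10 higher, where 38.9% of all probes were called.

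The rapamycin effects in Mot1-FRB and NCB2-FRB were compared directly, because a call in 1 strain and none in the other does not show a difference. By limma 0 of the 8 members differed, beside 0.501% of all probes, with 1 member under an unadjusted p of 0.05. HXT1 was that member: its effect was higher in Mot1-FRB than in NCB2-FRB by 0.42 ± 0.099 (SE, adjusted p = 0.112). RGT2 ran the other way, with a difference of -0.27 ± 0.16 (adjusted p = 0.529). HXT4 differed by 0.38 ± 0.23 (adjusted p = 0.536), so 7 of the 8 members had the higher effect in Mot1-FRB and RGT2 the lower. With the block HXT1 (adjusted p = 0.0149), HXT4 (0.0296) and RGT2 (0.0286) passed, where 16.4% of all probes were called. For HXT2 the interval of the difference, -0.11 to 0.91, and for SNF3, -0.0100 to 0.34, include 0.

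The untreated tagged strains were each set against untreated WT. Against untreated WT, 0 members were called in untreated Mot1-FRB, beside 0.971% of all probes, and 0 in untreated NCB2-FRB, beside 0.0157% (limma; 1 and 0 members had an unadjusted p under 0.05). The exception by size was HXT2, at -0.34 and -0.26 in untreated Mot1-FRB, against 0.14 and 0.084 in untreated WT. The groups did not overlap, and the difference of -0.41 ± 0.16 had an adjusted p of 0.416 (0.0515 with the block), with 16 of the 6388 probes lower. HXT2 was thus lower in untreated Mot1-FRB than in treated WT cultures. The differences of the other members from untreated WT ranged from -0.15 (RGT2) to 0.22 (HXT6) in Mot1-FRB, and those of all members from -0.048 (HXT2) to 0.21 (HXT4) in NCB2-FRB.

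The members were ordered by level over the 6 groups, each level a mean of 2 arrays. The direct comparison of the tagged strains called 0 of the 8 members, so the order of the treated tagged groups is descriptive. HXT1 and SNF3 had the same order of all 6 groups: untreated Mot1-FRB, untreated NCB2-FRB, untreated WT, treated WT, treated Mot1-FRB and, lowest, treated NCB2-FRB. From untreated WT downward no group overlapped the next in either gene, while the untreated Mot1-FRB and NCB2-FRB cultures at the top overlapped each other. The step from untreated to treated WT was small, -0.033 ± 0.055 for SNF3 and -0.12 ± 0.070 for HXT1 (SE), and was not called. For SNF3 it includes the dim array, at 1.08 times the blank level. How many of all probes share such an order was not counted. RGT2 also had the treated tagged groups at the bottom, but with treated Mot1-FRB lowest and apart from treated NCB2-FRB. HXT2 had treated NCB2-FRB and treated Mot1-FRB lowest, overlapping each other, then untreated Mot1-FRB, clear of both sides. HXT4 was lowest in treated NCB2-FRB, and its 6 groups overlapped their neighbours throughout. HXT5, HXT6 and HXT10 were highest in treated Mot1-FRB, which stood clear of the next group for HXT10 alone.

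The distance between the highest and the lowest group mean was 0.86 for HXT2, 0.71 for HXT1, 0.63 for RGT2, 0.50 for HXT6, 0.46 for SNF3, 0.44 for HXT4, 0.30 for HXT5 and 0.29 for HXT10. Likeness of pattern was measured as the root mean square difference of the 6 group means, each taken relative to untreated WT. Among the pairs of members, HXT5 and HXT10 were most alike at 0.045, followed by HXT1 and SNF3 at 0.099; the first pair also had the smallest distances. The adjacent genes HXT1 and HXT5 had opposite signs of change with rapamycin in Mot1-FRB (-0.29 and 0.28). The HXT5 change was not called by limma (adjusted p = 0.0704), and its probe was weak, at a median of 1.93 times the blank level.

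Other genes with like patterns were looked up after the members' values were seen, since no member met the rule of a distance of 1 or more. For HXT1 the nearest probes were FYV6, TRM10, which encodes a tRNA methyltransferase, and ERV1, a mitochondrial sulfhydryl oxidase (0.075 to 0.090). FYV6 changed by -0.36 ± 0.061 in Mot1-FRB and -0.52 ± 0.061 in NCB2-FRB. For HXT2 they were ARG2, of arginine synthesis, RAD55, of DNA repair, and YMC2, a mitochondrial carrier (0.064 to 0.083). ARG2 changed by -0.43 ± 0.069 in Mot1-FRB and -0.78 ± 0.069 in NCB2-FRB. For SNF3 they were SWT1, GTB1 and TRP1 (0.025 to 0.033), and for RGT2 they were DIM1, TUB4 and RAD23 (0.027 to 0.034). DIM1, an rRNA dimethylase, changed by -0.48 ± 0.074 in Mot1-FRB and -0.21 ± 0.074 in NCB2-FRB. FYV6, ARG2 and DIM1 were called by limma in both strains, but several other neighbours were not. TRM10, ERV1, SWT1 and TRP1 were not called in Mot1-FRB (adjusted p = 0.294, 0.263, 0.0796 and 0.136). TUB4 and RAD23 were not called in NCB2-FRB (adjusted p = 0.140 and 0.165). The probe nearest to HXT4 was HXT13, another gene of the family (0.040).

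The genes around the transporters were counted in lists of the glucose response. For Mot1-FRB 22.0% of all probes were called higher and 15.3% lower, or 33.9% higher and 28.5% lower with the block. For NCB2-FRB the shares were 22.8% higher and 18.2% lower, or 31.8% higher and 30.8% lower with the block. The list counts are to be read against these shares, and no list was tested as a whole. Of the other HXT family genes and GAL2, 8 of 10 were measured, and 0 were called in Mot1-FRB by limma. In NCB2-FRB 0 were called higher and 1 lower, HXT13, at -0.34 ± 0.10 (adjusted p = 0.0274). The median changes of this list were -0.028 in Mot1-FRB and -0.17 in NCB2-FRB, and with the block 2 were higher and 1 lower in Mot1-FRB and 5 lower in NCB2-FRB. HXT13, HXT16 and HXT17, like HXT9 and HXT11, are close copies and may share signal. Of 4 other sugar carriers measured, MAL31, a maltose permease, rose by 0.62 ± 0.078 in Mot1-FRB and 0.87 ± 0.078 in NCB2-FRB on the log2 scale. MAL11, which belongs to a second maltose locus, fell by 0.24 ± 0.056 and 0.17 ± 0.056 in the same strains. With the block 2 of these 4 were higher and 1 lower in Mot1-FRB, and 3 higher and 1 lower in NCB2-FRB.

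In the branch between the sensors and the HXT promoters, 8 of 8 genes were measured. In Mot1-FRB 2 were called higher and 1 lower: MTH1 rose (0.45 ± 0.13, adjusted p = 0.0267) and STD1 rose (0.42 ± 0.11, adjusted p = 0.0154), both corepressors of HXT genes, and the repressor gene RGT1 fell (-0.27 ± 0.079, adjusted p = 0.0252). In NCB2-FRB 2 were called higher and 0 lower: STD1 rose (0.67 ± 0.11, adjusted p = 0.00122), as did the corepressor gene CYC8 (0.38 ± 0.073, adjusted p = 0.00304). MTH1 in NCB2-FRB stood at 0.21 ± 0.13 (adjusted p = 0.255). The kinase genes YCK1 and YCK2, the ubiquitin ligase gene GRR1 and TUP1 did not pass in either strain. With the block 2 were higher and 3 lower in Mot1-FRB, the lower ones now including GRR1 (adjusted p = 0.00136) and YCK1 (adjusted p = 0.0291), and 2 were higher and 0 lower in NCB2-FRB.

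The Snf1 and Mig1 branch had calls in both directions. In Mot1-FRB 3 of 14 genes were called higher and 6 lower, among them SIP2 (0.60 ± 0.12) and MIG2 (0.43 ± 0.10) higher, and MIG3 (-0.45 ± 0.071) and SAK1 (-0.34 ± 0.060) lower. In NCB2-FRB 5 were called higher and 4 lower, led by SIP2 (0.82 ± 0.12), MIG1 (0.61 ± 0.14), HXK2 (0.51 ± 0.13) and MIG3 (-0.41 ± 0.071). SIP2 encodes a beta subunit of the Snf1 kinase, MIG1 to MIG3 encode repressors, and SAK1 a kinase of Snf1. SNF1 itself fell in Mot1-FRB (-0.23 ± 0.067, adjusted p = 0.0248) and stood at -0.12 ± 0.067 in NCB2-FRB (adjusted p = 0.178, and 0.0426 with the block). With the block 7 of the 14 were higher and 6 lower in Mot1-FRB, and 5 higher and 5 lower in NCB2-FRB.

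The cAMP branch and glucose phosphorylation were counted next. Of 13 genes of the cAMP branch measured, 6 were called higher and 0 lower in Mot1-FRB, and 6 higher and 1 lower in NCB2-FRB. With the block 8 were higher and 2 lower in each strain. GPR1, a receptor for glucose, rose by 0.94 ± 0.14 in Mot1-FRB and 0.87 ± 0.14 in NCB2-FRB, and GPA2, its G protein, by 0.81 ± 0.16 and 1.09 ± 0.16. TPK3, a catalytic subunit of protein kinase A, was the lower call in NCB2-FRB (-0.38 ± 0.064). TPK2, another catalytic subunit, was called higher in both strains, by 0.50 ± 0.097 in Mot1-FRB and 0.51 ± 0.097 in NCB2-FRB. Of the 4 genes of glucose-phosphorylating enzymes and their relatives, 3 were called higher in Mot1-FRB and 4 in NCB2-FRB, and 4 in each with the block. Hexokinase gene HXK1 rose by 1.52 ± 0.29 in Mot1-FRB and 1.16 ± 0.29 in NCB2-FRB, glucokinase gene GLK1 by 1.40 ± 0.23 and 1.37 ± 0.23, and EMI2 by 0.98 ± 0.21 and 1.33 ± 0.21.

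The adaptors that lead carriers to endocytosis, the glucose-repressed enzymes and the stress genes completed the lists. Of 7 adaptor genes, 1 was called higher in each tagged strain, ROD1, which acts in the removal of Hxt carriers from the membrane (0.54 ± 0.095 in Mot1-FRB and 0.87 ± 0.095 in NCB2-FRB). With the block 2 were higher and 3 lower in Mot1-FRB, and 2 higher and 1 lower in NCB2-FRB. Of 14 glucose-repressed genes, 4 were called higher and 1 lower in Mot1-FRB, and 3 higher and 2 lower in NCB2-FRB, in all close to or below the share of all probes called. With the block 6 were higher and 3 lower in Mot1-FRB, and 4 higher and 3 lower in NCB2-FRB. MDH2, a malate dehydrogenase gene, rose by 0.90 ± 0.11 and 0.65 ± 0.11, while the activator gene CAT8 fell by 0.37 ± 0.072 and 0.42 ± 0.072. Of 16 genes of the Msn2 and Msn4 stress response, 14 were called higher in each tagged strain (15 in Mot1-FRB and 14 in NCB2-FRB with the block), with medians of 1.58 in Mot1-FRB and 1.43 in NCB2-FRB. HSP26 reached 2.35 ± 0.27 in Mot1-FRB and 2.38 ± 0.27 in NCB2-FRB. GPH1 of that list was above the blanks on 0 of 12 arrays. In WT 0 genes of any list were called. Against the WT effect 19.4% (Mot1-FRB) and 23.5% (NCB2-FRB) of all probes were called. In that comparison the Snf1 and Mig1 branch had 0 higher and 1 lower in Mot1-FRB, and 1 higher and 0 lower in NCB2-FRB. The branch between the sensors and the HXT promoters had 1 higher and 0 lower in each strain. The stress genes had 12 (Mot1-FRB) and 13 (NCB2-FRB) higher and 0 lower.

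**Figure D4:**
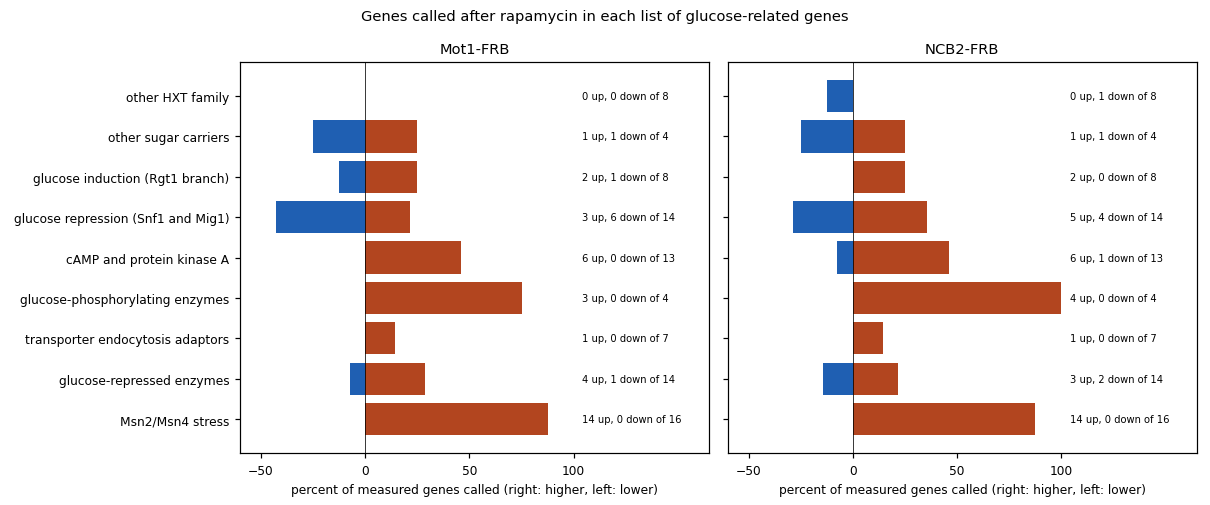
Share of the measured genes of each list called higher (right) or lower (left) after rapamycin at an adjusted p under 0.05, in Mot1-FRB and in NCB2-FRB, with the counts at the right. The stress genes (14 of 16 in each strain) and the glucose-phosphorylating enzymes have calls in the higher direction and 0 lower, while the other HXT family genes show 0 of 8 and 1 of 8 calls.

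The log2 changes of HXT1, HXT2, SNF3 and RGT2 with rapamycin were below 0 in both tagged strains under every processing of the arrays that was tried, and their sizes moved with it. In Mot1-FRB HXT1 ranged from -0.24 with median centring to -0.58 with the authors' deposited values, and HXT2 from -0.31 to -0.57. Centring without a dye curve left 0 members called in Mot1-FRB. There median centring called 7.94% of all probes and external control centring 0%. In NCB2-FRB SNF3 alone was called by limma when arrays were centred on their medians (-0.50, adjusted p = 0.0255, where 10.9% of all probes were called).

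**Figure D5:**
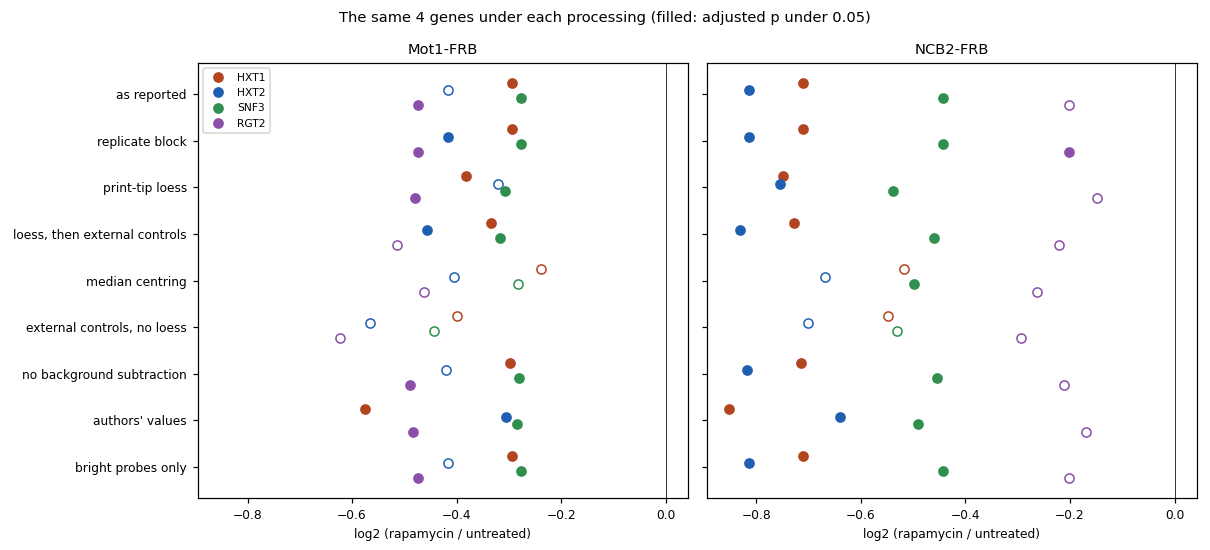
Log2 change of HXT1, HXT2, SNF3 and RGT2 with rapamycin in Mot1-FRB and NCB2-FRB under 9 ways of processing; filled points had an adjusted p under 0.05. All points lie below 0; with external controls and no loess every point is open, and with median centring only SNF3 in NCB2-FRB (-0.50) is filled.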

How the data were processed

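Per the labels' protocols, arrays were scanned with an Agilent scanner and read with Imagene; the spot and background intensity of both channels was, per the file headers, deposited without normalization. A further deposit by the authors held intensities normalized by print-tip LOESS (span 0.4, no background subtraction) with a dye-bias correction per gene, and a table of their log2 ratios, which matched those intensities to 4.99e-06. No genome build was named in the files.

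Here, in R 4.3.3 with limma 3.58.1, intensities were corrected by normexp (offset 50) and global loess on gene spots (span 0.3, 4 iterations), turned to culture over reference, and averaged over the 2 spots of each probe, with no filter on dim probes. The fit had 1 mean per group over all 12 arrays, without a block (6 residual and 3.00 prior degrees of freedom), two-sided moderated tests, and Benjamini-Hochberg adjustment over 6388 probes at 0.05 in each of 8 comparisons. Fold changes of dim probes are understated by the offset. With 2 arrays a group their number limits the precision. The p-values of this fit measure the spread between the arrays of a group, in which culture and dye are mixed. For RGT2 with rapamycin the SE was 0.114 without the replicate block and 0.048 with it. A run that leaves 1 array in a group takes its spread from the other groups.

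Deviations from group means of arrays with the same letter had correlations of 0.482 to 0.817 over 15 pairs of groups (median 0.66), so the letters pair the arrays; blocked values (5 residual and 4.12 prior degrees of freedom) are given where they change a member's call, and as counts for the lists. Symbols came with the platform annotation, and of 5326 in all, the RefSeq table held 5266 as a symbol or locus tag and 60 as a synonym. All members are named, and of each list up to 4 called genes with the largest change in a comparison, with others named only to give their value. HXT12, HXT15 and MPH3 had no named probe and were not analysed here. The members and lists were chosen with earlier results of these data known. The fit was run on simulated data with independent noise, few changed probes and no letter effect. That run therefore does not cover the correlation between arrays of the same letter. Figures used Python 3.11.15, matplotlib 3.10.9 and pandas 2.3.3.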

Additional observations from a re-analysis of the deposited data

Results flagged for a closer look

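The rapamycin effect on HXT1 differed between NCB2-FRB and WT by -0.59 ± 0.099 on the log2 scale (SE, limma, adjusted p = 0.00325), with a fall in 2 of 2 NCB2-FRB letters and a smaller one in 2 of 2 WT letters. The effect on SNF3 differed between the same strains by -0.41 ± 0.078 (adjusted p = 0.00567), with the same directions. Both stood out because the test of the difference between strains passed. The treated WT culture a that enters both is the dim array, where SNF3 was at 1.08 times the blank level, and without it both differences were still called, with adjusted p of 0.0142 and 0.0217. The part played by the dim array in the spread was not tested.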

How the results depend on the processing

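The 64 member values, 9 of them called, were recomputed under 11 other settings and without each of the 12 arrays; of 1456 recomputed values 1362 kept their direction and side of the threshold (90 of these changed sign without a call in either state), 28 lost a call, 66 gained one and 0 called values changed sign. Counts of called members were 4 (Mot1-FRB), 3 (NCB2-FRB), 0 and 2 (Mot1-FRB and NCB2-FRB minus WT) and 0 (Mot1-FRB minus NCB2-FRB) as reported. Of all probes 37.3%, 41.0%, 19.4%, 23.5% and 0.501% were called, in the same order. The replicate block gave 7, 6, 3, 4 and 3, where 62.4%, 62.6%, 44.7%, 48.4% and 16.4% of all probes were called. Median centring gave 0, 1 and 0 in Mot1-FRB, NCB2-FRB and NCB2-FRB minus WT, where 7.94%, 10.9% and 0.423% of all probes were called. Centring on external controls in place of loess gave 0 in all 3, with 0 of all probes called. Neither centring removes a dye curve, and the cause was not tested further. Print-tip loess gave 4 in Mot1-FRB minus WT, where 23.9% of all probes were called. The authors' values gave 5 in NCB2-FRB (57.8% of all probes called), 4 in Mot1-FRB minus WT (38.9%) and 5 in NCB2-FRB minus WT (42.3%). With the block, an alternative chosen after seeing the data, they gave 6 (62.6%), 4 (44.7%), 5 (47.3%) and, in Mot1-FRB minus NCB2-FRB, 1 (12.9%). Also chosen after seeing the data, loess followed by external control centring with the block gave 5 in NCB2-FRB (59.7% of all probes called). It gave 2 and 4 against WT (42.5% and 45.0%) and 1 between the tagged strains (10.5%). Also chosen then, median centring with the block gave 1 in each difference from WT (22.0% in Mot1-FRB and 25.2% in NCB2-FRB). The cause of these shifts was not tested. Leaving out an array gave 1 to 6 calls in Mot1-FRB (1 without untreated culture b, 6 without either treated NCB2-FRB culture), 3 to 4 in NCB2-FRB, 2 to 3 in NCB2-FRB minus WT and 0 to 0 elsewhere. The median of all probes in Mot1-FRB minus WT moved from 0.017 to 0.10 with median centring and to -0.13 with external control centring. HXT10 and HXT5 are limited by their low signal over the blanks; 6 of the 8 members were among the 4031 bright probes.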
